A study of Homo sapiens with 2 samples.

Results

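Class 3 semaphorins are the secreted semaphorins, and the neuropilins are the cell surface proteins to which most of them bind. The OTX2 binding peaks at these genes were examined in D283 tumorspheres. The family was taken as its 7 ligand genes, SEMA3A, SEMA3B, SEMA3C, SEMA3D, SEMA3E, SEMA3F and SEMA3G, and its receptor genes NRP1 and NRP2. These are 9 of the 19881 protein-coding genes annotated on the autosomes and sex chromosomes. A peak was assigned to a gene when at least 1 bp of it overlapped the GENCODE gene record in GRCh38 extended by 50 kb on each side. This gave 121 of the 137412 peaks of the series.

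The established cell line D283 comes from a medulloblastoma, a tumour of the cerebellum, and OTX2 is a homeodomain transcription factor that these cells express. The spheres were grown in serum-free neural medium with EGF and bFGF, received no treatment, and are called OTX2+ controls in the labels. Chromatin from these spheres gave 1 library pulled down with an antibody against OTX2 (OTX2) and 1 library made without antibody (Input). The study used this experiment to ask where OTX2 binds at axon guidance genes. With 1 library of each kind, no value below carries a replicate error and no condition could be compared with another. The presence of OTX2 or of medulloblastoma markers was not checked here, since the libraries hold chromatin and not RNA.

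Class 3 semaphorins guide growing axons, mostly by repelling the growth cone, and also act on blood vessels and tumour cells. A neuropilin binds the ligand but has a short cytoplasmic tail, and an associated plexin carries the signal into the cell, where it acts on small GTPases and the cytoskeleton. SEMA3E is the exception among the ligands, because it binds plexin D1 directly. Neuropilins also bind vascular endothelial growth factors (VEGF), NRP1 alongside KDR and NRP2 alongside FLT4.

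Sequence is shown for the stretches where an OTX2 peak lies directly on a RefSeq promoter of a family gene, because these are the places where binding and a transcript start coincide. The RefSeq promoter windows (GRCh38.p14) run from 250 bases before to 50 bases after a start, 300 bases in all, and 7 members have 15 such windows. SEMA3A and NRP1 are not in the table. A peak overlapped 4 of the 15 windows, against 37.8% of 22199 windows of protein-coding genes. These 4 windows belong to NRP2, SEMA3D and SEMA3B, and the pair at SEMA3B share a single peak. The bases before the start that lie within the peak are given 5′ to 3′ along the gene, with capitals on TAATC or, for a match on the opposite strand, GATTA.
NRP2 (chr2:205682251-205682499, plus strand): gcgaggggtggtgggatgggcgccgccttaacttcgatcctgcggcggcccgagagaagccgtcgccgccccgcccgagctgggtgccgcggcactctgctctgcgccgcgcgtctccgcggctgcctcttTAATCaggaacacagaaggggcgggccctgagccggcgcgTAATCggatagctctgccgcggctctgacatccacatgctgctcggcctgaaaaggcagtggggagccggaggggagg
SEMA3D (chr7:85187057-85187306, minus strand): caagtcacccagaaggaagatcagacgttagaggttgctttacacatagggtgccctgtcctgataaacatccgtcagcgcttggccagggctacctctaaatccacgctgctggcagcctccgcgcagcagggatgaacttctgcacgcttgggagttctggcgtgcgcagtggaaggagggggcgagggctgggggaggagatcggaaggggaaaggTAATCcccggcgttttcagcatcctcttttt
SEMA3B (chr3:50272973-50273118, plus strand): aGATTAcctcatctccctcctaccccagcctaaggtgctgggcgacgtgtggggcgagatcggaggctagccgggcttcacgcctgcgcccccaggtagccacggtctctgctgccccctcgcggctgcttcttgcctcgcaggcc

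TAATCC and TAATCT are sequences that OTX-type homeodomains are known to bind, and they were searched on both strands of the windows. The SEMA3D stretch holds TAATCC on the strand of the gene, 26 bases upstream of the start and 101 bp from the peak summit. The SEMA3B stretch holds TAATCT on the opposite strand at the very edge of the peak, 145 bp from its summit. The NRP2 stretch holds neither 6-letter motif, and its 2 capitalised matches have only the core TAATC. The core, which is contained in both longer motifs, was chosen for display after the values were seen. Of the 15 member windows, 5 held TAATCC or TAATCT and 8 held the core, against 10.6% and 16.5% of all windows. Of these 5, 2 overlapped no peak and 3 overlapped one, and the pair at SEMA3B among the latter hold the same TAATCT. Among all windows that overlapped a peak the shares were 12.1% and 17.5%, and among those without a peak 9.69% and 16%. Among all windows that held a peak summit they were 16% and 22.1%. The windows of a gene overlap in part, so the 15 are not independent, and a match does not show that the site was bound.

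The OTX2 library held 84980793 fragments, of which the authors kept 61259377 after removing duplicates, and the Input library held 32292980, of which 22521186 were kept. The height of a peak is the deposited pileup at its summit. Each OTX2 fragment added 0.735 to this pileup, so heights are given here as fragments, with exact Poisson 95% intervals that cover counting error only. Fold enrichment is the authors' ratio of the scaled pileup to the local input. Over the whole series a peak had a median height of 53 fragments, with a range from 15 to 461. Peak numbers differed between chromosomes: chromosome 7, which carries SEMA3A, SEMA3C, SEMA3D and SEMA3E, had 2.73 peaks per 100 kb, against 4.91 over the other autosomes. The local input was at its floor for 85.7% of peaks on chromosome 7 and for 31.3%, 31.4% and 33.2% on chromosomes 2, 3 and 10. The part of chromosome copy number or coverage in this was not tested.

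Every family gene had OTX2 peaks, and most of these lay far from a transcript start, as did most peaks of the series. All 9 members had a peak in the extended record, as did 94.1% of protein-coding genes, and all 9 had a peak inside the record itself, against 69.5%. The study counted peaks in a window of 5 kb before and 2 kb after the transcription start. With this window placed here on the 5′ end of the record, 7 of 9 had a peak, against 57.2%. SEMA3C and SEMA3E had none there. Around the start of the canonical transcript the count was also 7, against 58.5%, and around any annotated transcript start it was 9, against 66.6%. With RefSeq records for the members, 5 of 9 had a peak in the window on the 5′ end. With 9 genes of unequal length and so common a binding pattern, these counts say little that is particular to the family.

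**Figure D1:**
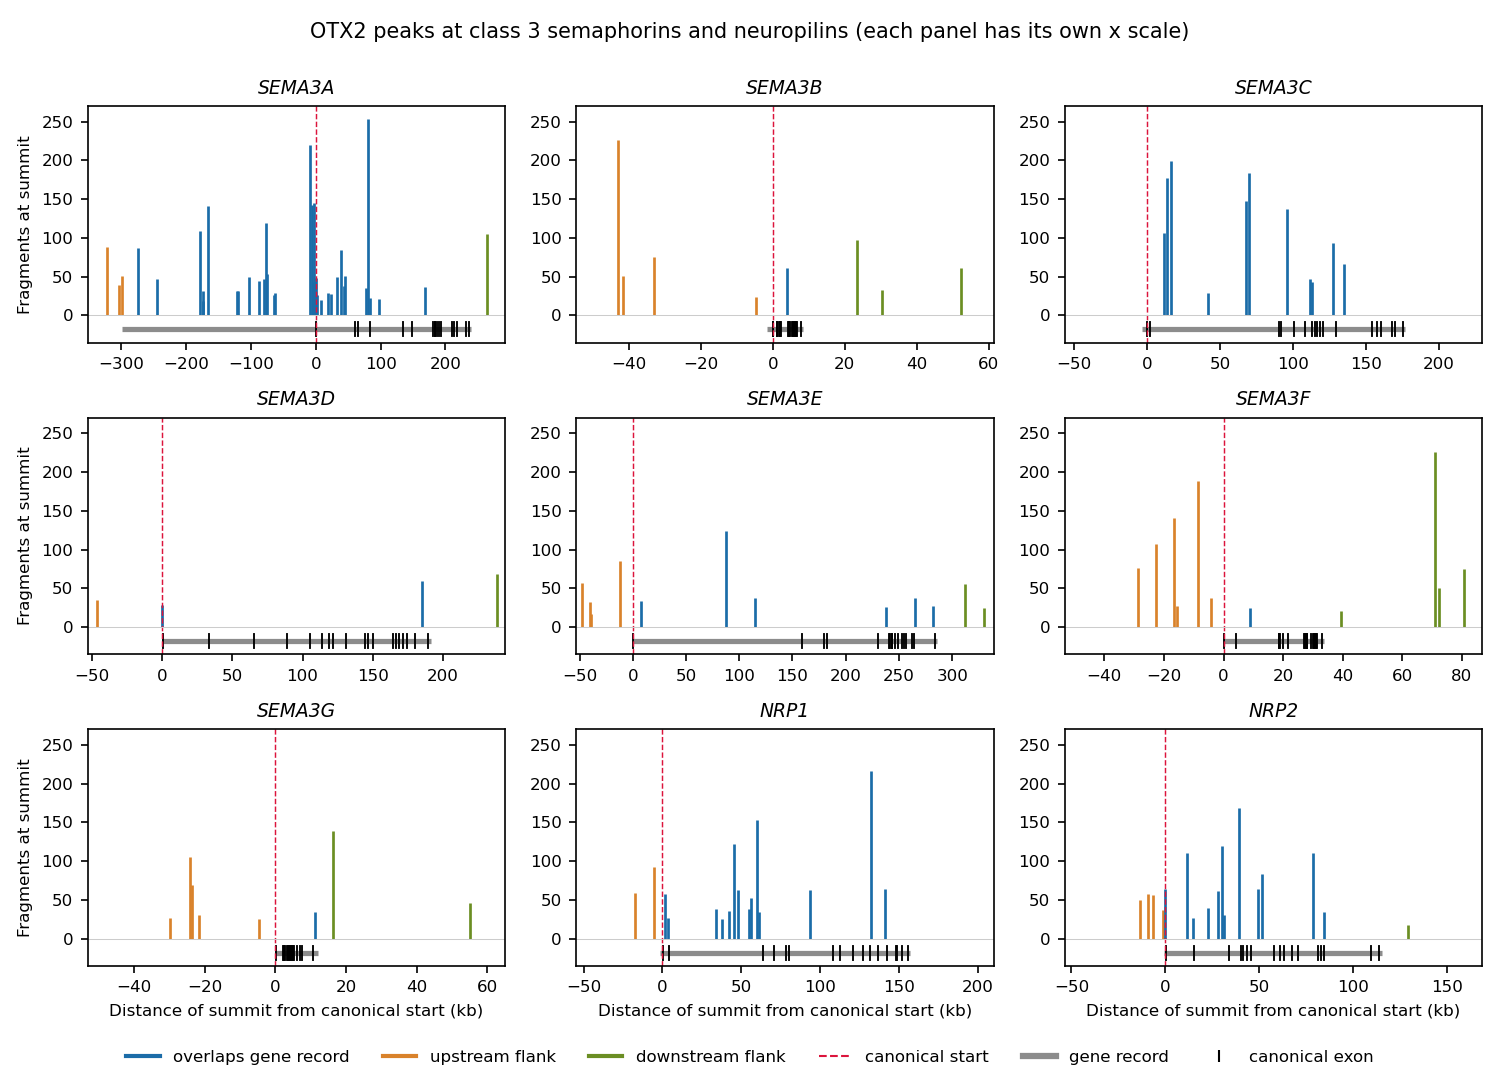
OTX2 peaks of each gene by distance of the summit from the start of the canonical transcript (x axis, kb, positive in the direction of transcription, a separate scale in each panel) and height (y axis, fragments at the summit). SEMA3A has 20 of its 37 peaks inside the record but upstream of the canonical start, all 11 SEMA3C peaks are inside the gene, and SEMA3F has 6 peaks upstream and 1 inside.

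Of the 121 peaks, 81 overlapped a member's gene record and 40 lay only in a flank. Of the 81 record peaks, 4 had their summit in an exon of the canonical transcript, 15 in intron 1, 41 in a later intron and 21 upstream of the canonical start. Summits lay a median of 17.2 kb from the nearest start of an own transcript, 10 of 121 (8.26%) within 1 kb and 97 (80.2%) more than 5 kb away. Measured to the nearest start of any protein-coding transcript, 70.2% of member summits lay more than 5 kb away, against 76.7% of all summits of the series. Within 1 kb of such a start lay 17 member summits (14%), against 10.7% of all summits.

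Gene-body and flanking peaks were of like height. The record peaks had a median of 48 fragments (range 19 to 253) and a median fold enrichment of 6.66, and the flanking peaks a median of 56 fragments (range 17 to 226) and 7.0-fold. Over all protein-coding genes the record peaks had a median of 53 fragments and 6.03-fold, and the flanking peaks 51 fragments and 5.95-fold. The local input was at its floor for 80 of the 121 member peaks (66.1%), against 32.5% of all peaks of the series. Of the member peaks, 64 were at the genes of chromosome 7. The part of the local input in the fold values was not tested. An enrichment of at least 10-fold was reached by 21 record peaks (25.9%) and 12 flanking peaks (30%), against 25.4% and 25.3% over all protein-coding genes. Of the 12 peaks with at least 20-fold enrichment, 4 were at SEMA3A, which has 37 peaks, and 4 at SEMA3C, which has 11. The others were the peak shared by SEMA3B and SEMA3F and single peaks of SEMA3F, SEMA3G and NRP1.

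**Figure D2:**
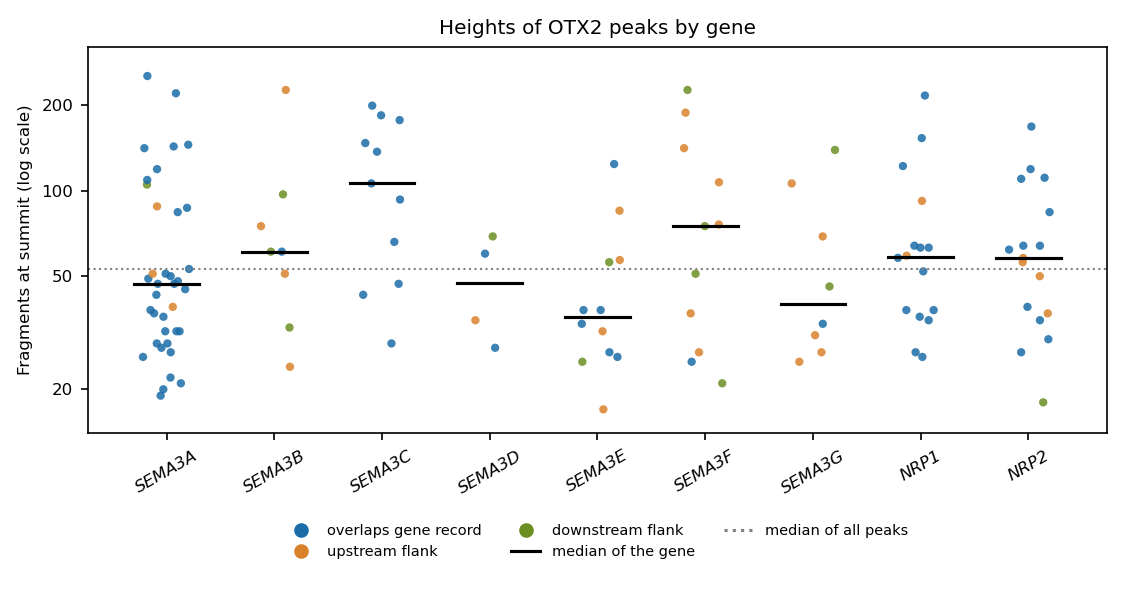
Height of every peak of each gene (y axis, fragments at the summit, log scale), coloured by place; bars are the median of each gene, the dotted line is the median of all peaks of the series (53), and peaks in the windows of both SEMA3B and SEMA3F are drawn for each. SEMA3C has the highest median (106) and SEMA3E the lowest (36), while SEMA3A ranges from 19 to 253.

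SEMA3A encodes the founding member of the class, which repels growth cones through NRP1 and A-type plexins. It had more peaks than any other member, 37 in a window of 637 kb (5.81 per 100 kb), and also the longest record, chr7:83955777-84492724 on the minus strand. Of these, 33 overlapped the record, 3 lay upstream and 1 downstream. The density of its peaks was at percentile 56.8 among all protein-coding genes and at 88.1 among the 921 on chromosome 7, where 109 genes had a higher one. Among the 75 genes of chromosome 7 with at least 0.5 times the length of SEMA3A, 8 had a higher density, and the median was 3.11 per 100 kb. A place near the middle over the genome and near the top of its own chromosome are thus both descriptions of the same gene.

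The tallest peak of the whole family lay within SEMA3A, at chr7:84114306-84115035 in intron 3, 80.1 kb downstream of the canonical start. It held 253 fragments (interval 223 to 286) with 37.5-fold enrichment. The highest fold enrichment of SEMA3A was at percentile 96.6 among all protein-coding genes and at 90.1 among the 1988 genes of its length class. The nearest peak to the 5′ end of the record was much lower, with 51 fragments (38.0 to 67.1) and 7.72-fold enrichment at chr7:84493120-84493452, 549 bp upstream.

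The 5′ end of the SEMA3A record is not where its canonical transcript begins. The canonical start lies 298 kb further downstream, and OTX2 peaks were crowded just upstream of it. Within chr7:84194562-84203414, a stretch of 8.85 kb, 5 peaks covered 59.4% of the bases and held 599 fragments together. Going upstream from the canonical start, the first summit lay at 158 bp and had 48 fragments (35.4 to 63.6). The next lay at 1896 bp and had 145 fragments (122 to 171) with 21.6-fold enrichment, followed at 3275 bp by a lower peak of 43 fragments. The last pair, at 6355 bp and 8244 bp, had 143 fragments with 21.2-fold enrichment and 220 fragments (192 to 251) with 23.3-fold enrichment. Thus 3 of the 5 were enriched more than 20-fold, while the other 2 reached 7.28-fold and 6.54-fold.

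This cluster was singled out after the values were seen. In a window of 10 kb before and 1 kb after the canonical start, SEMA3A had 5 peaks, whereas the median gene had 1 and 208 of 19881 protein-coding genes (1.05%) had at least 5. On chromosome 7 these were 2 of 921 genes, SEMA3A included. The 5 cluster peaks had a median of 143 fragments and the other 32 peaks of SEMA3A a median of 42. A further peak of 109 fragments (89.5 to 131) and 16.3-fold enrichment, chr7:84371564-84372682, had its summit 80 bp upstream of the start of another, non-canonical SEMA3A transcript. The start window contains neither this peak nor the cluster when it is placed on the 5′ end of the record, and it contains 3 of the 5 cluster peaks when it is placed on the canonical start.

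**Figure D3:**
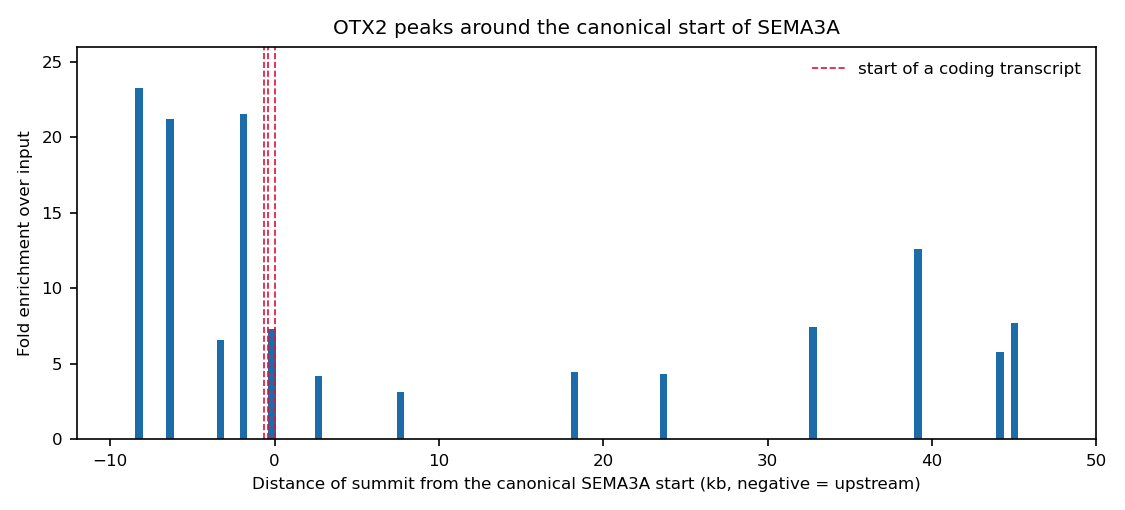
Fold enrichment over input (y axis) of the OTX2 peaks around the canonical SEMA3A start (x axis, distance in kb, negative upstream, each bar a peak at its summit); dashed lines are starts of coding transcripts. The 3 highest bars, 21.2 to 23.3, all lie upstream within 10 kb of the start, and the peaks of intron 1 stay at or below 12.6.

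SEMA3C encodes a ligand of both neuropilins, known for its part in forming the outflow tract of the heart. Its 11 peaks (3.93 per 100 kb, percentile 37.7 over the genome and 72.1 on chromosome 7) all lay in introns of the record chr7:80742538-80922359, and both flanks were without a peak. Their median of 106 fragments was the highest of the family. The strongest by enrichment, chr7:80848809-80849408 in intron 2, held 184 fragments (158 to 213) with 27.3-fold enrichment, 69.9 kb downstream of the canonical start. A second group sat 11.8 to 16.2 kb downstream of the start, also in intron 2, with 106, 177 and 199 fragments. Intron 2 held 6 of the 11 peaks. The nearest peak to the canonical start, chr7:80906977-80907522, was 11.8 kb away, so SEMA3C combined strong intronic peaks with no peak near the 5′ end of its record.

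SEMA3D and SEMA3E encode ligands that act on developing vessels and axons, SEMA3E through plexin D1. SEMA3D had the fewest peaks, 4 in 292 kb (1.37 per 100 kb, percentile 13.7 over the genome and 27.1 on chromosome 7). Its only peak at the start, the one shown above as sequence, covered chr7:85186793-85187571 with its summit 73 bp downstream of the start, in exon 1. That peak was also its lowest, with 28 fragments (18.6 to 40.5) and 4.33-fold enrichment. The strongest, chr7:84948497-84948941, lay beyond the 3′ end in the downstream flank, with 69 fragments and 10.4-fold enrichment. The strongest inside the record, chr7:85001522-85002080 in intron 18, had 60 fragments and 9.05-fold enrichment.

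SEMA3E had 12 peaks (3.11 per 100 kb, percentile 29.1 over the genome and 61.5 on chromosome 7), 6 in the record chr7:83363238-83649139 and 6 in the flanks. The strongest, chr7:83561248-83561780 in intron 1, held 124 fragments (103 to 148) with 15.4-fold enrichment, 87.6 kb downstream of the start. The strongest outside the record was 11.7 kb upstream of the start, with 85 fragments and 12.7-fold enrichment. The nearest peak to the start was 7.25 kb inside the gene, with 34 fragments (23.5 to 47.5) and 5.21-fold enrichment, and its summit was 461 bp upstream of the start of a shorter SEMA3E transcript. Of the 12 peaks, 4 at the 3′ end of the gene were nearer to the start of PCLO, a presynaptic scaffold protein, than to that of SEMA3E.

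**Figure D4:**
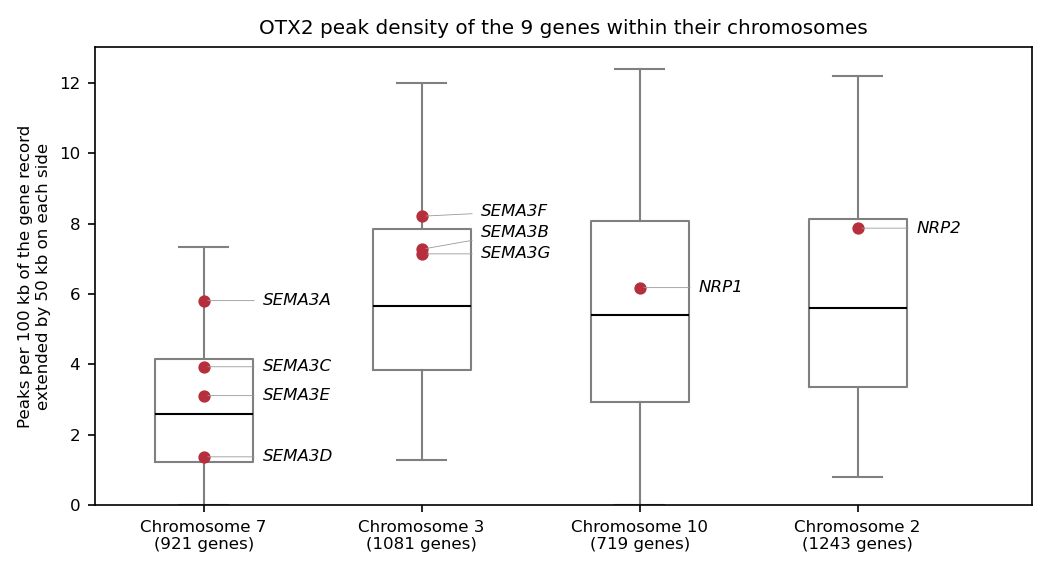
Peaks per 100 kb of the extended record (y axis) of the 9 genes (red points) within all protein-coding genes of the same chromosome. Boxes are quartiles with the median, and the whiskers leave out the most extreme genes. The chromosome 7 median is 2.58 and the others are 5.39 to 5.67, so SEMA3A at 5.81 is above the box of its own chromosome but near the medians of the others.

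The semaphorin genes of chromosome 3 had a different layout. SEMA3F and SEMA3B, which follow each other on the plus strand, and SEMA3G are short genes, and of their 24 peaks only 3 (12.5%) overlapped the records. For the 4 genes of chromosome 7 it was 52 of 64 (81.2%), but their records span 1194 kb in all and those of chromosome 3 only 56.1 kb. Per 100 kb of record the counts were 4.35 on chromosome 7 and 5.35 on chromosome 3. In the flanks on chromosome 3, 5 of 21 peaks lay in the start window of another protein-coding gene, and on chromosome 7 none of 12 did.

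SEMA3F, a repellent that acts through NRP2, had 11 peaks (8.21 per 100 kb, percentile 77.2), the highest density of the family. A run of 6 peaks upstream of the gene, from 4.01 kb to 28.5 kb before the record chr3:50155045-50189075, all had the SEMA3F start as the nearest protein-coding start. The strongest of them, chr3:50138530-50138986, had 141 fragments (119 to 166) with 20.9-fold enrichment at 16.3 kb, and chr3:50146472-50147079 had 188 fragments (162 to 217) with 19.9-fold enrichment at 8.26 kb. The upstream peak nearest to the start, at 4.01 kb, had 37 fragments and 3.98-fold enrichment. Inside the gene there was a single peak, chr3:50164248-50164516 in intron 2, with 25 fragments (16.2 to 36.9) and 3.88-fold enrichment. The OTX2 signal of SEMA3F was thus distal and upstream, with low values at the start and in the gene body.

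SEMA3B, which binds both neuropilins and is known as a candidate tumour suppressor of the short arm of chromosome 3, had 8 peaks (7.27 per 100 kb, percentile 70.1), of which 2 had the SEMA3B start as the nearest protein-coding start. The first was the peak shown above as sequence, at chr3:50272973-50273243 within intron 7 of the canonical transcript. It had 61 fragments (46.7 to 78.4) and 5.40-fold enrichment, and its summit lay 1 bp from the start of a shorter SEMA3B transcript. The second, nearest to the 5′ end of the record, lay 3033 bp upstream with 24 fragments (15.4 to 35.7) and 3.74-fold enrichment. The local input at the intron 7 peak was 7.49, against the floor of 3.98, so its enrichment is lower than its height alone would give.

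The strongest peak in the windows of SEMA3F and SEMA3B was common to both and belonged to neither start. It lay at chr3:50225947-50226487, 87 bp from the start of GNAI2, the gene of an inhibitory G protein subunit, and had 226 fragments (197 to 257) with 23.9-fold enrichment. The other 2 shared peaks lay in GNAI2 as well. Downstream of SEMA3B, a peak of 97 fragments and 14.5-fold enrichment lay 405 bp from the start of IFRD2. Others lay at the starts of HYAL3 and NAA80 and of HYAL2, where HYAL2 and HYAL3 are hyaluronidase genes. With only peaks nearest to their own start, SEMA3F kept 7 peaks and SEMA3B 2.

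**Figure D5:**
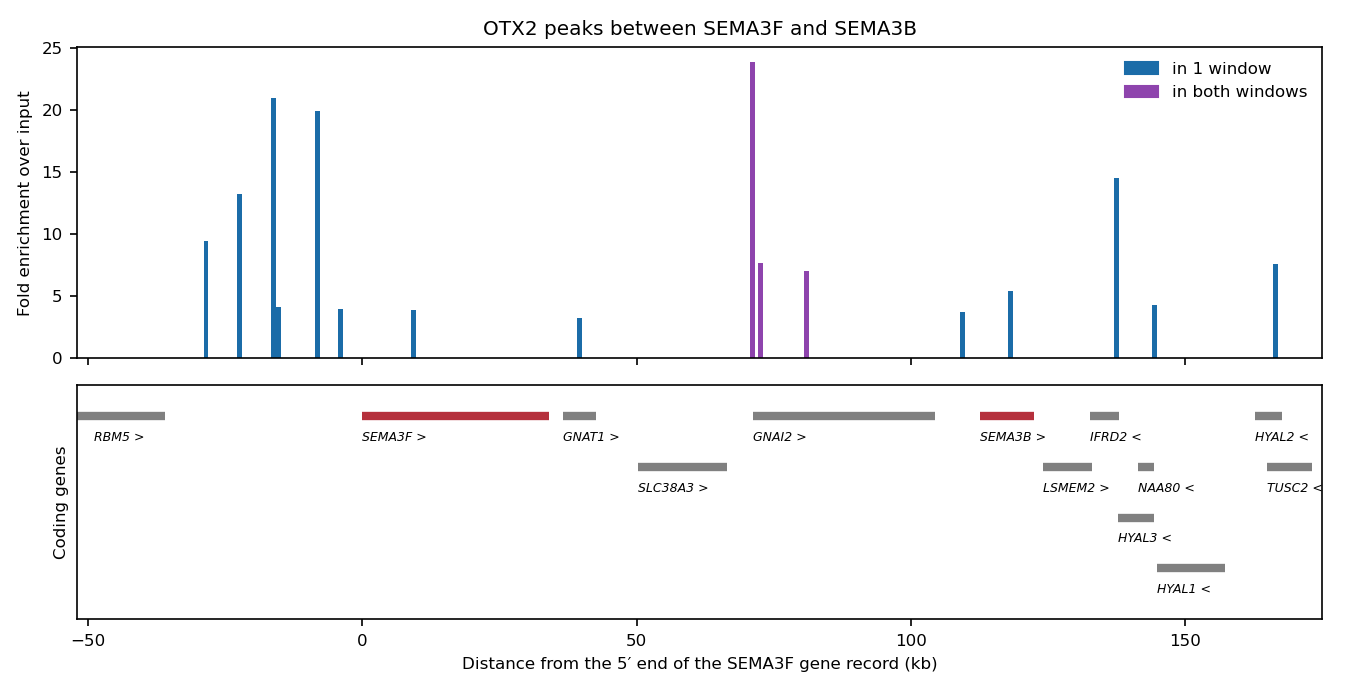
Upper panel, fold enrichment over input (y axis) of the OTX2 peaks around SEMA3F and SEMA3B by distance from the 5′ end of SEMA3F (x axis, kb), with purple for peaks in both extended records; lower panel, the protein-coding genes, with an arrowhead for the strand. The highest bar, 23.9, stands at the start of GNAI2 between the genes, and the bars upstream of SEMA3F reach 20.9.

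SEMA3G, a ligand of NRP2 described mainly in endothelium, had 8 peaks (7.14 per 100 kb, percentile 69.2), of which 2 were nearest to its own start. The strongest was 16.3 kb downstream of the start and beyond the end of the gene, at chr3:52428573-52429088, with 139 fragments (117 to 164) and 20.7-fold enrichment. The only peak inside the record chr3:52433035-52445103 was in exon 16, with 34 fragments (23.5 to 47.5) and 5.20-fold enrichment. Nearest to the start was a peak 4740 bp upstream with 25 fragments and 3.88-fold enrichment, which lay closer to the start of TNNC1, cardiac troponin C, at 4198 bp. The remaining upstream peaks lay in NISCH, and the far downstream one in DNAH1 with BAP1 as the nearest start.

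The receptor genes had 26 peaks in 275 kb of record (9.46 per 100 kb), with 8.82 per 100 kb of record for NRP1 and 10.3 for NRP2. Among the ligand genes the values ran from 1.04 for SEMA3D to 10.0 for SEMA3B, whose short record holds 1 peak, so the ranges of ligand and receptor genes overlap. Over the extended records, SEMA3F, SEMA3B and SEMA3G had higher densities than NRP1, but these include peaks nearer to the starts of other genes. With only peaks nearest to their own start, SEMA3F kept 7, SEMA3B 2 and SEMA3G 2, while NRP1 kept all 16. The 33 peaks of NRP1 and NRP2 had a median of 58 fragments and 7.87-fold enrichment. None of their 7 flanking peaks lay in the start window of another gene, and NRP1 or NRP2 had the nearest protein-coding start for all 33.

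NRP1, the receptor of SEMA3A and a VEGF co-receptor, had 16 peaks (6.18 per 100 kb, percentile 60.6), 14 of them in the record chr10:33177492-33336262. Intron 2 held 9, with 26 to 153 fragments, the tallest of them at chr10:33273838-33275086 with 20.0-fold enrichment. The strongest of the gene, chr10:33201941-33203261, lay in intron 11, 132 kb downstream of the canonical start, and had 216 fragments (188 to 247) with 22.6-fold enrichment. Its summit was 709 bp downstream of the start of a short NRP1 transcript. The peak nearest to the 5′ end of the record by summit was 2954 bp inside the gene, in intron 1, and had 58 fragments (44 to 75) but 4.85-fold enrichment, with a local input of 8.0. Upstream, 3699 bp before the record, chr10:33339684-33340146 had 92 fragments (74.2 to 113) and 13.7-fold enrichment. Only 3 intronic peaks of NRP1, at 22.6-fold, 20.0-fold and 18.2-fold, were more enriched than this upstream peak, and the others were lower.

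NRP2, the receptor of SEMA3F, had 17 peaks (7.87 per 100 kb, percentile 74.8), 12 in the record chr2:205681990-205798133, 4 upstream and 1 downstream. The peak on the promoter shown above, chr2:205682200-205682818, had its summit 81 bp upstream of a transcript start and 429 bp inside the record, with 64 fragments (49.3 to 81.7) and 9.61-fold enrichment. Of the promoters shown as sequence this was the most enriched one. The highest enrichment in the gene was 16.5-fold, with 111 fragments (91.3 to 134), in intron 12 at chr2:205760232-205761632, and nearly the same, 16.4-fold with 110 fragments, was reached in intron 1 at chr2:205693575-205694094. Their intervals overlap almost wholly. The tallest peak, 168 fragments (144 to 195) in intron 3 at chr2:205721099-205721847, had only 9.58-fold enrichment, because the local input there was 12, the joint highest at any peak of the family.

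For the proteins that work with the ligands and neuropilins, a list of 24 genes was used, made of plexins, cell adhesion co-receptors, VEGF genes and their receptors, and cytoplasmic mediators. Of the 24, 22 had a peak in the extended record, 18 inside the record and 10 in the start window, against the shares of 94.1%, 69.5% and 57.2% over all protein-coding genes. Their median density was 5.02 peaks per 100 kb, against 5.12 over all protein-coding genes. Among the plexins, PLXNA2 had 51 peaks (15.8 per 100 kb, percentile 98.5), with 3 in its start window and up to 27.8-fold enrichment. PLXNA4 had 24 peaks (3.84 per 100 kb), PLXND1 9 (5.94) and PLXNA1 6 (3.88), none of them in the start window. PLXNA3 on the X chromosome had 0 peaks. FYN, a kinase that acts below the plexins, had 37 peaks with up to 35.1-fold enrichment, and the mediator LIMK1 had 0 peaks. Of the cell adhesion co-receptors, CNTN2 was at density percentile 93.2 over the genome, CHL1 at 39.8, NRCAM at 27.5 and L1CAM at 21.9. NRCAM (2.93 per 100 kb), PLXNA4 and LIMK1 lie on chromosome 7, where the median gene had 2.58, and L1CAM lies on the X chromosome. Percentiles within the chromosome were not computed for the listed genes. L1CAM had 3 peaks, none of them inside its record or in its start window. Of the VEGF receptors, FLT1 had 30 peaks with up to 42.3-fold enrichment, KDR 6 and FLT4 1.

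These values describe where OTX2 was found in 1 library and not which gene a peak acts on. The lowest peak of the family had 17 fragments and the lowest of the series 15, and binding too weak to be called is not listed.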

How the data were processed

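OTX2-bound DNA was measured in D283 tumorspheres with 1 OTX2 library and 1 Input library. Per the file headers, the authors used MACS2 2.1.0.20140616 for narrow peaks of OTX2 against Input, at a q-value of 0.05, with duplicates reduced to 1 fragment and a genome size of 2700000000. The submitters' notes name Bowtie2 2.2.4 and GRCh38 for the alignment. The OTX2 library had 2.72 times the fragments of the Input library, whose depth limits the precision of enrichments. The deposited pileup is a signal, the scaled fragment coverage at the summit. Fold enrichment, as deposited, is the ratio between this pileup and the local input after MACS2 adds 1 to both. The deposited −log10 q-value was used only for a stricter threshold. The study states that blacklisted regions were masked.

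Pileups were divided by the worth of 1 fragment, and all 137412 came out whole within 0.01. Gene records and transcripts came from GENCODE release 44, in a version mapped to GRCh37 that also lists each exon's native GRCh38 position. Only the latter was used, so no coordinate was converted. The canonical transcript is the one tagged so by Ensembl. Chance was not tested, because the members and lists were chosen with earlier results of these data known. Each member was described by its strongest peak, its strongest peak inside the record and the peak nearest to the 5′ end, and genes whose start is nearest to these peaks, or whose start window holds them, were named as neighbours. Other genes and the SEMA3A cluster were named after their values were seen. Stricter peak thresholds, other flanks and start windows, RefSeq records and other backgrounds were tried as alternatives. Overlap counting was tested on simulated peaks. Sequence under peaks was examined only within the RefSeq promoter windows, and elsewhere was not analysed here, since the genome used is of another build. The analysis ran in Python 3.11.15 with scipy 1.17.1, numpy 2.4.6, pandas 2.3.3 and, for the plots, matplotlib 3.10.9.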

Additional observations from a re-analysis of the deposited data

How the results depend on the processing

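No paired analysis was possible because each condition has a single library. The number of members with a peak near the 5′ end of the record was 7, and it was 3 when peaks under 5-fold enrichment were left out and 3 when the window was narrowed to 1 kb around the start. Both settings count fewer peaks by construction. The share of all protein-coding genes with a peak near the start was computed under neither, so these counts have no background beside them. With RefSeq records for the members the count was 5. Over 8 alternatives the range was 3 to 9. The number of peaks in the extended records, 121, ranged from 83 under the 5-fold limit to 145 with flanks of 100 kb. The median height of 51 fragments ranged from 48 to 64. A peak inside the record was kept by 8 or 9 members, and its background share was computed only with the main setting. Single genes moved more. With flanks of 10 kb the highest enrichment of SEMA3B was 5.40 in place of 23.9, since the GNAI2 peak falls away, and with flanks of 100 kb SEMA3F had 20 peaks in place of 11 and a highest enrichment of 47.2. Of 72 peak counts of single members under the alternatives, 13 moved by more than 1.5 times, and 3 of 72 density percentiles moved beyond the counting interval of the gene's peaks, among them that of SEMA3A, from 56.8 to 88.1 within chromosome 7. Use of the canonical start, and the omission of peaks whose local input reached 7.97, were chosen after seeing the data. The Input depth limits enrichments at the local input floor of 3.98.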
